A study of Mus musculus with 4 samples.

Results

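The genes described here encode 7 surface molecules with which activated B cells signal to T cells or adhere to other cells: Cd80, Cd86, Icosl, Cd40, Cd83, Icam1 and Cd44. Every gene probe whose accession is a RefSeq transcript of one of these genes was taken, which gave 11 of the 39429 probes on the array. Cd44 had 4 probes, Cd80 had 2 and the other 5 genes had 1 each. All 11 probes were well above background on all 4 arrays, so each of the 7 genes was among the 20646 genes and unnamed transcripts (features) tested.

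The arrays held RNA of splenic B cells from Aff3+/- mice (2 arrays) and Aff3-/- mice (2 arrays), purified as CD43-negative cells (CD43 is a sialoglycoprotein that resting follicular B cells lack). All cells had received LPS, a bacterial ligand of TLR4 (10 ug/mL), and the T cell cytokine IL-4 (10 ng/mL) during a culture of 3 days. The Aff3+/- controls carry 1 altered Aff3 allele themselves, and no wild-type or unstimulated sample was analysed here, so these data compare genotypes in stimulated cells and show no induction by the culture. The labels used here do not say whether the replicates came from separate mice, and p-values then measure only the spread between these samples.

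A T cell that meets antigen on a B cell also reads costimulatory ligands of the B7 family. CD80 and CD86 bind CD28, which promotes T cell activation, and CTLA-4, which restrains it, while ICOS ligand (Icosl) binds ICOS on helper T cells. In the other direction, CD40 receives CD40 ligand from the T cell. CD83 marks mature antigen-presenting cells and helps to keep CD86 and MHC class II at the surface. ICAM-1 holds the contact together through the integrin LFA-1, and CD44 is a hyaluronan receptor of activated lymphocytes whose transcript is spliced in many forms. TLR4 acts on B cells through NF-kB, and IL-4 acts through STAT6.

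Promoter sequence was at hand for 4 of the 7 genes, from RefSeq on GRCm38.p6. The 250 bases before the transcription start of 3 of them are shown, because Icosl and Cd44 lay apart in the 2 genotypes in opposite directions and Icam1 holds letters that NF-kB and STAT factors are known to bind. The windows are chr10:78069118-78069367 on the + strand for Icosl, chr2:102901666-102901915 on the - strand for Cd44 and chr9:21015690-21015939 on the + strand for Icam1. Capitals mark matches on either strand to letters bound by NF-kB (GGAAATTCC, or GGG and TTTCC with 2 bases of any kind between them) and by STAT factors (TTC and GAA with 3 bases of any kind between them, or with 4, the spacing preferred by STAT6).

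Icosl: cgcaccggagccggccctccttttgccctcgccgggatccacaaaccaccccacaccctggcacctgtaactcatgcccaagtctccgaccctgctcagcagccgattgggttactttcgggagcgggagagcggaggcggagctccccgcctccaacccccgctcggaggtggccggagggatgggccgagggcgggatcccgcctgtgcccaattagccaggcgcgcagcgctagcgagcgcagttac

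Cd44: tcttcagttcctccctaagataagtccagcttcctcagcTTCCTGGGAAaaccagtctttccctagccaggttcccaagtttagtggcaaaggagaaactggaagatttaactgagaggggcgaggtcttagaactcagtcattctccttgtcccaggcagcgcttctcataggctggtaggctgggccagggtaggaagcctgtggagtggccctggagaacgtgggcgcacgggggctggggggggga

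Icam1: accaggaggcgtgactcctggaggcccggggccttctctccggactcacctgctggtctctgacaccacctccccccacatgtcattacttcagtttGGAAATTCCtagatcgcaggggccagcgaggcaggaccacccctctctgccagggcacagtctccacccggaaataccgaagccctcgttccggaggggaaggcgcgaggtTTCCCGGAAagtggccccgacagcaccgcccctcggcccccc

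The Icam1 window held GGAAATTCC, beginning 153 bases before the start, and TTCCCGGAA, the STAT letters with a spacer of 3 bases, beginning 42 bases before it. The Cd44 window held TTCCTGGGAA, the STAT letters with a spacer of 4 bases, beginning 211 bases before the start. The windows of Icosl and Cd80 held none of these letters. Over 32851 promoter windows of the same length, 0.286% held GGAAATTCC, 1.41% the other NF-kB letters, 7.02% the STAT letters with the spacer of 3 and 5.85% those with the spacer of 4. These matches describe the letters of the windows and are not binding sites shown in these cells.

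Comparison of Aff3-/- with Aff3+/- cells asked whether these transcripts depend on Aff3, an AF4/FMR2 family protein of the nucleus, in activated B cells. No probe was matched to Aff3 itself, so its loss was not checked here and the directions rest on the labels. None of the 7 genes passed the adjusted threshold of 0.05 (limma, adjusted p = 1.00 for each), and 0% of all features did. None had an unadjusted p under 0.05 either, which 2.04% of all features had. In Aff3-/- cells 5 of the genes had a higher mean, and Icosl and Cd80 a lower one. The genotypes did not overlap for Icosl, lower in Aff3-/- cells, or for Cd44 and Cd40, higher in them. Of all features 19.6% showed no overlap, 11.1% being lower and 8.44% higher. The 95% intervals of the 7 log2 differences together ran from -0.85 to +0.58, so a halving or a doubling lay outside each of them.

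**Figure D1:**
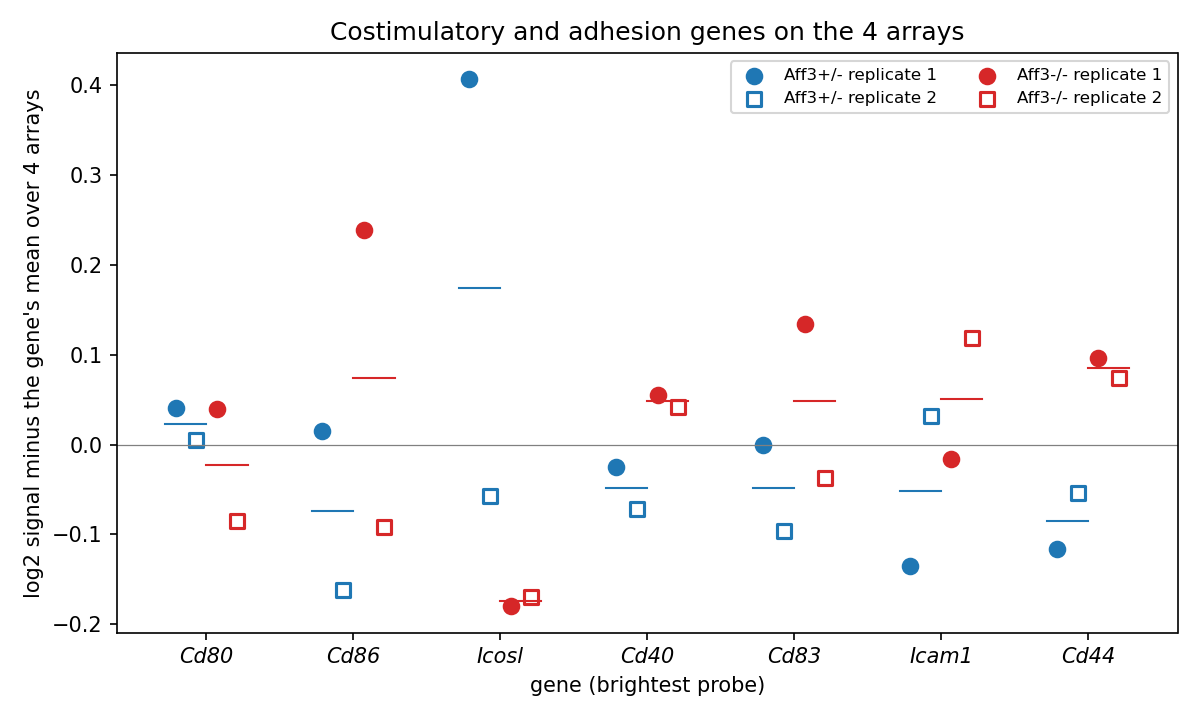
Log2 signal of each gene's brightest probe on each of the 4 arrays, minus the gene's mean over the arrays (y axis), for the 7 genes (x axis); circles are replicate 1, squares replicate 2, blue Aff3+/-, red Aff3-/-, and short lines the mean of each genotype. Both red points lie below both blue points for Icosl and above them for Cd40 and Cd44, while Aff3+/- replicate 1 stands apart for Icosl and Aff3-/- replicate 1 for Cd86.

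Among the B7 ligands, Icosl had the largest difference of the 7 genes. Its processed signal was 1608 and 1236 intensity units on the Aff3+/- arrays of replicate 1 and 2, against 1107 and 1091 on the Aff3-/- arrays. The Aff3-/- arrays were close to each other, and Aff3+/- replicate 1 was the highest of the 4. Relative to each array's 75th percentile, the log2 level was 0.10 ± 0.33 (SD, n = 2) in Aff3+/- and -0.24 ± 0.0076 in Aff3-/- cells. The log2 difference was -0.35 ± 0.19 (SE; 95% interval -0.85 to +0.15), equal to a 1.27-fold lower signal. A larger difference in either direction was found for 6.09% of all features, and for 1.46% of the 1853 features whose mean log2 level lay within 0.5 of that of Icosl. Leaving out Aff3+/- replicate 1 gave -0.12 and leaving out Aff3+/- replicate 2 gave -0.58, so its size depended on which control array was used. Its direction was the same in each, which the lack of overlap made certain.

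The signal of Cd86 was 10856 and 10182 intensity units on the Aff3+/- arrays of replicate 1 and 2, and 13113 and 10193 on the Aff3-/- arrays. Aff3-/- replicate 1 alone was higher, and after scaling the genotypes overlapped. The log2 difference was +0.15 ± 0.17 (SE), and -0.018 without Aff3-/- replicate 1. In bulk RNA, a change in the share of cells that carry a transcript and a change in the amount per cell cannot be told apart, here and for the other genes.

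Cd80 showed the smallest difference. Its brighter probe read 1009 and 1044 intensity units in Aff3+/- cells and 1042 and 935 in Aff3-/- cells. Those values overlapped, with a log2 difference of -0.046 ± 0.12 (SE), and of +0.016 without Aff3-/- replicate 2. The second Cd80 probe read 444 and 483 intensity units against 420 and 427, and on it both Aff3-/- arrays were the lower ones (log2 difference -0.12 ± 0.11). Both probes thus pointed downward, and they differed on whether the genotypes overlapped.

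Cd40, the receptor for T cell help, varied little. Its signal was 12659 and 12996 intensity units in Aff3+/- cells and 13829 and 13400 in Aff3-/- cells. Both Aff3-/- arrays were above both Aff3+/- arrays, and replicates of a genotype were nearly equal, with log2 levels of 3.29 ± 0.033 (SD, n = 2) and 3.39 ± 0.0092. The pooled SD within genotypes was 0.024 on the log2 scale, against a median of 0.11 over 1199 features of like signal. The log2 difference was +0.096 ± 0.11 (SE). This error exceeds the spread of the Cd40 arrays, because limma moderates each gene's variance toward that of all features.

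Cd83 read 86233 and 85562 intensity units on the Aff3+/- arrays, and 97852 and 84986 on the Aff3-/- arrays. As for Cd86, the higher mean came from Aff3-/- replicate 1, and the genotypes overlapped. The log2 difference was +0.097 ± 0.13 (SE), but +0.011 without that array and +0.18 without Aff3-/- replicate 2. Aff3-/- replicate 1 was the highest array for 4 of the 7 genes (Cd86, Cd40, Cd83 and Cd44), and for 26.3% of all features.

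Of the adhesion genes, Cd44 was higher on both Aff3-/- arrays with each of its 4 probes. The brightest probe read 7309 and 8092 intensity units in Aff3+/- cells and 8758 and 8429 in Aff3-/- cells, and the second read 5304 and 5925 against 5996 and 6521. After scaling, the log2 differences of these probes were +0.17 ± 0.11 (SE) and +0.17 ± 0.12. The third probe read 174 and 201 intensity units against 203 and 223 (+0.20 ± 0.13), and the fourth 58.1 and 74.5 against 80.2 and 76.0 (+0.26 ± 0.14). All 4 probes are assigned to the same transcript accession, so they are repeat readings of 1 gene on the same arrays and not replicates. Leaving out any 1 array kept the difference of the brightest probe between +0.14 and +0.20. Among all probes tested, 8.26% were higher and 11.4% lower without overlap, and 0% passed the adjusted threshold. Of the 11 probes described here, 5 were higher and 2 lower without overlap, and none passed (limma, adjusted p = 1.00 for each).

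**Figure D2:**
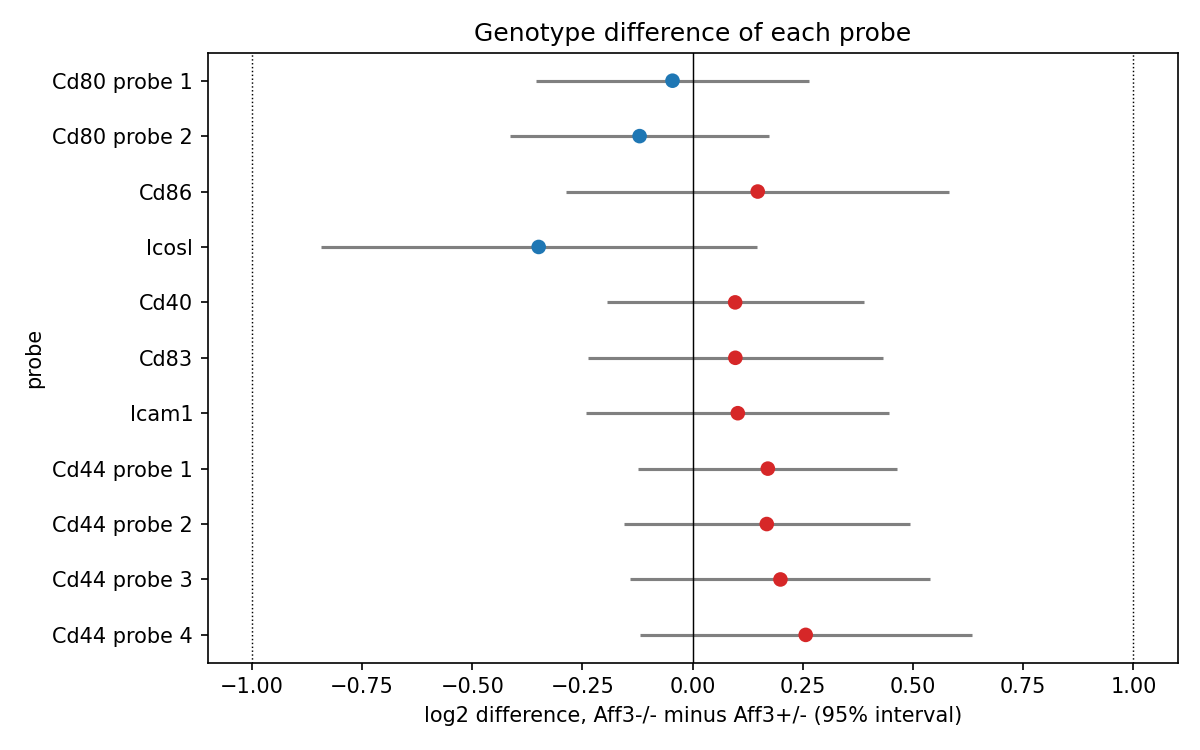
Log2 difference of Aff3-/- minus Aff3+/- cells (x axis) for each of the 11 probes (y axis, probes of a gene numbered from the brightest); points are the fitted difference, bars its 95% interval from limma, and dotted lines mark a halving and a doubling. The 4 Cd44 probes lie between +0.17 and +0.26, and every interval includes 0 and excludes both dotted lines.

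The signal of Icam1 was 542 and 646 intensity units on the Aff3+/- arrays and 608 and 653 on the Aff3-/- arrays. The ranges overlapped, and Aff3+/- replicate 1 was the lowest array. The log2 difference was +0.10 ± 0.13 (SE). Without Aff3+/- replicate 1 it was +0.019, and without Aff3-/- replicate 2 it was +0.035. With Aff3+/- replicate 2 left out it was +0.19.

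Over the 7 genes the median log2 difference was +0.097, against -0.011 over all features, of which 45.7% were higher in Aff3-/- cells. Leaving out Aff3-/- replicate 1 brought the median of the 7 to +0.011, and leaving out Aff3+/- replicate 2 to +0.059. The count of genes higher without overlap, 2 with all arrays, was 4 without Aff3+/- replicate 1 and also 4 without Aff3-/- replicate 2. In those fits 1 gene was lower without overlap, the same count as with all arrays. The share of all features without overlap in either direction rose from 19.6% to 45.5% and 62.7%.

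**Figure D3:**
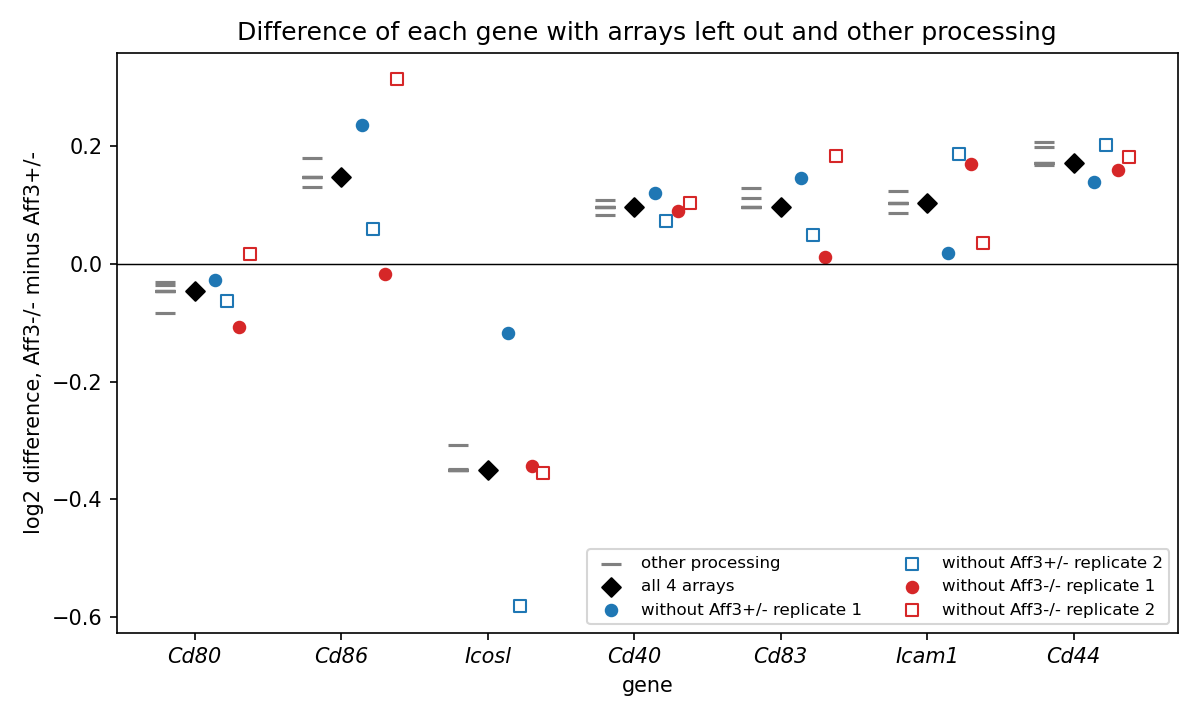
Log2 difference of Aff3-/- minus Aff3+/- cells (y axis) for each gene (x axis) with all 4 arrays (diamond), with each array left out (circles and squares) and with other processing (grey dashes). Cd40 and Cd44 stay above 0 and Icosl below 0 throughout, which leaving out an array could not change, since their genotypes do not overlap. Cd86 moves from +0.31 to -0.018 with the array left out, and Icosl from -0.12 to -0.58.

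Relatives and partners of these molecules were taken from 5 lists, in which 57 of 58 genes were matched to a probe and 46 were tested. None passed the adjusted threshold (limma), 2 had an unadjusted p under 0.05, and 23 were higher and 23 lower in Aff3-/- cells. Their median log2 difference was -0.0096. In the deposited log2 values, which gave 34 of the listed genes a value, it was -0.073, so these medians cover different genes. With the 46 genes the median was -0.035 without Aff3-/- replicate 1 and turned positive without any other array (+0.020 to +0.024). In the B7 and CD28 family 3 of 7 tested genes were higher (median -0.069). Leaving out any 1 array turned this median positive (+0.017 to +0.058), with 4 of 7 genes higher each time. There Cd28, the receptor of CD80 and CD86, was +0.33 ± 0.13 (SE) without overlap. Its competitor Ctla4 was +0.17 ± 0.14 and the PD-1 ligand gene Pdcd1lg2 -0.20 ± 0.22, both with overlap. Icos was well above background on only 1 array and Cd40lg on none.

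Costimulatory ligands and receptors of the TNF superfamily stood highest, with 9 of 10 tested genes higher and a median of +0.30. Of the 10 genes 4 were higher without overlap, against 8.44% of all features. Both counts include Tnfsf14, which entered the test only through the Aff3-/- arrays, where it was higher. The CD27 ligand Cd70 was +0.55 ± 0.25 (SE), with log2 levels of -0.56 and -0.54 on the Aff3+/- arrays against 0.34 and -0.35, so Aff3-/- replicate 1 alone stood well above the others. The OX40 ligand Tnfsf4 was +0.43 ± 0.17, at low log2 levels of -4.71 and -4.42 on the Aff3+/- arrays against -4.00 and -4.27. Tnfsf14, which encodes LIGHT, was +0.81 ± 0.29, but only 1 of the 2 Aff3+/- arrays read it well above background, so this value is not exact. The fourth was Cd27, at +0.10 ± 0.11. It was very dim, with log2 levels of -7.25 and -7.23 on the Aff3+/- arrays against -7.18 and -7.10, so the genotypes were barely apart. Leaving out Aff3+/- replicate 1 brought the median of this list to +0.12. With only genes above background on all 4 arrays kept, which leaves out Tnfsf14, 8 of 9 were higher and the median was +0.17. In the deposited log2 values, with 4 of the genes, the median was +0.040.

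The SLAM and CD2 family, whose members bind each other between lymphocytes, had 6 of 10 genes higher and a median of +0.011. Without Aff3-/- replicate 1 this fell to 1 of 10 genes and a median of -0.046, and without Aff3+/- replicate 1 to 5 of 10 and -0.0020. It was 7 of 10 without Aff3-/- replicate 2, with a median of +0.063. Cd2 was -0.48 ± 0.27 (SE), Slamf7 +0.20 ± 0.22 and Cd84 -0.15 ± 0.17, all with overlap. Of the integrins and immunoglobulin-type adhesion genes 3 of 14 were higher (median -0.055, and +0.0031 without Aff3+/- replicate 1). Itgb7, the gut-homing integrin chain, was lower without overlap (-0.39 ± 0.15), whereas Itgb3 (+0.30 ± 0.19) and Icam4 (-0.30 ± 0.21) overlapped. The ICAM-1 receptor chains Itgal (+0.016 ± 0.12) and Itgb2 (-0.027 ± 0.12) were close to 0. Of the list of CD24, CD47 and hyaluronan receptor genes 2 of 5 were higher (median -0.047, and -0.13 without Aff3-/- replicate 1). Cd24a, a glycoprotein of developing and activated B cells, was -0.32 ± 0.12 without overlap, whereas Cd47 (-0.060 ± 0.12) and Selplg (-0.047 ± 0.12) overlapped.

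**Figure D4:**
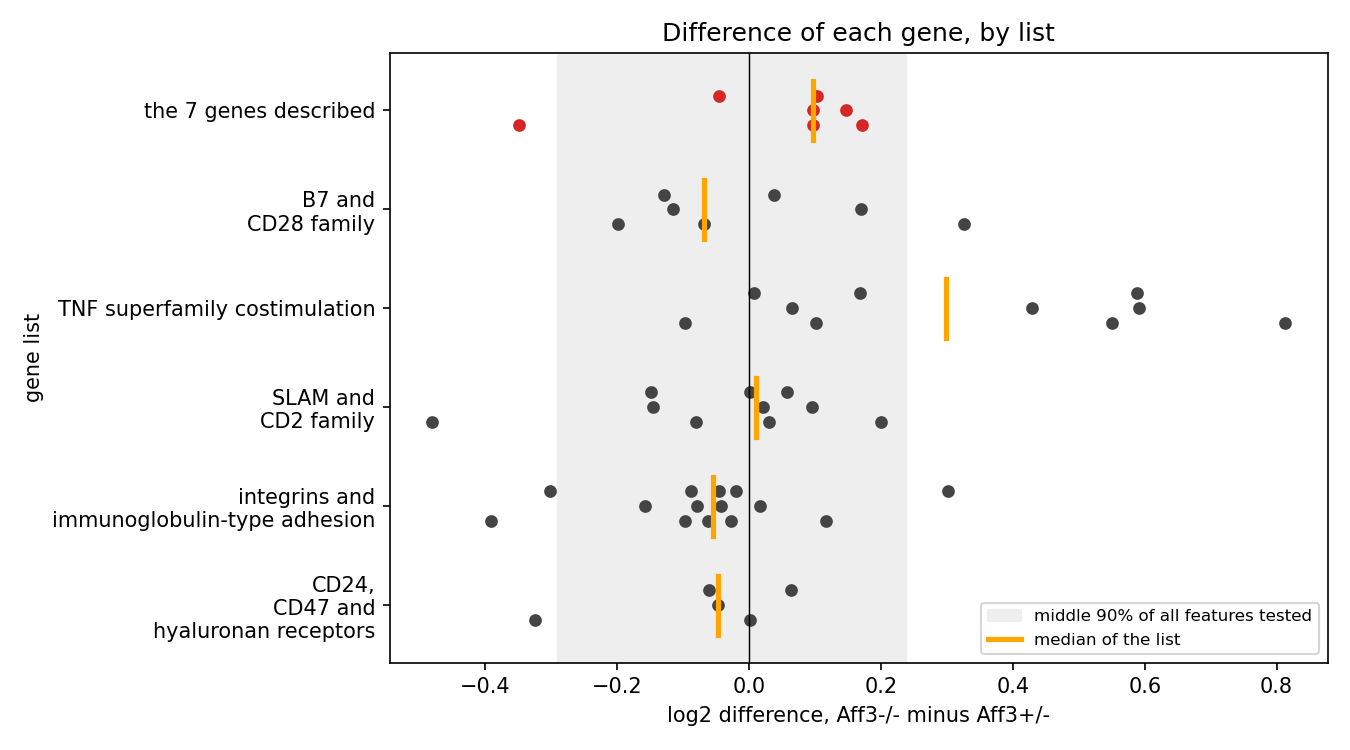
Log2 difference of Aff3-/- minus Aff3+/- cells (x axis) for each tested gene of the 7 described (red) and of the 5 lists of relatives and partners (dark grey), one row per list; orange lines are list medians and the shaded band holds the middle 90% of all features. Of the 7 genes 6 lie within the band, from -0.29 to +0.24, and Icosl lies below it; the TNF superfamily list has the highest median, +0.30.

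Across the other members and these 46 genes, the gene whose 4-array profile lay nearest to that of Icosl was Itgb7, with a root mean square difference of 0.086 on the log2 scale after centring. Ly9 was nearest to Cd83 (0.013), Cd47 to Cd80 (0.020), Tnfrsf9 to Icam1 (0.025), Alcam to Cd86 (0.042), and Cd27 to both Cd40 (0.038) and Cd44 (0.051). A profile without any variation would lie 0.051 from Cd40 and from Cd80, 0.085 from Cd83, 0.088 from Cd44 and 0.092 from Icam1. That distance was 0.15 for Cd86 and 0.24 for Icosl. With 4 arrays such nearness describes these samples only.

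Several of the 7 molecules are also made by dendritic cells and macrophages, so markers of other cells were examined. The 7 B cell markers used were all tested, Cd79a, Cd79b and Ms4a1 among them, and their summed signal, in multiples of the array's 75th percentile, was 426 to 459 in Aff3+/- and 398 to 464 in Aff3-/- cells. The median log2 difference of these markers was -0.11, toward lower values in Aff3-/- cells, and each overlapped between genotypes. For dendritic cells 5 of 9 markers were tested, with sums of 135 to 145 and 130.2 to 133. Itgax and Xcr1 were above background on no array, whereas Flt3 was above it on all 4. The sum rests mainly on Siglech and Ccr7, lower without overlap (-0.11 ± 0.12 and -0.091 ± 0.11). Zbtb46 (+0.52 ± 0.16) and Batf3 (+0.42 ± 0.15), both transcription factors of dendritic cells, were higher without overlap. Their unadjusted p was 0.024 and 0.044, and neither passed the adjusted threshold (limma). For macrophages and monocytes 5 of 11 were tested (7.50 to 8.68 and 7.23 to 7.92), with Csf1r and Adgre1 above background and Lyz2 on no array. That sum rests mainly on Itgam, whose mean log2 level in Aff3+/- cells was 2.94, against -1.77 for Csf1r and -3.82 for Adgre1. For T cells 9 of 12 were tested (9.58 to 10.3 and 8.95 to 9.69), with Cd3e and Cd3d above background and Cd3g on no array. Lck and Cd4 make up most of that sum (mean log2 level 2.78 and 1.15 in Aff3+/- cells, against -1.81 for Cd3e and -6.35 for Cd3d). Neutrophil markers were tested for 2 of 7 genes (0.455 to 0.906 and 0.549 to 0.583), with S100a8 and S100a9 on no array. NK cell markers were tested for 2 of 6 (0.775 to 0.884 and 0.705 to 0.880), with Ncr1, Klrb1c and Klrk1 on no array. Stromal and endothelial markers were tested for 6 of 9 (3.27 to 3.62 and 3.07 to 3.73), with Pecam1, Cdh5 and Kdr above background. All 5 plasma cell markers were tested (46.0 to 51.5 and 53.2 to 56.1), and the sum was higher on both Aff3-/- arrays. Xbp1 and Jchain make up most of that sum (mean log2 level 4.98 and 3.42 in Aff3+/- cells, against -4.56 for Sdc1). Sdc1 (+0.035 ± 0.40), Prdm1 (+0.044 ± 0.14) and Xbp1 (+0.12 ± 0.13) were above background and each overlapped between genotypes. Of the 5 only Jchain was higher without overlap (+0.33 ± 0.17), as were 8.44% of all features. Elsewhere 2 T cell markers, 1 macrophage and monocyte marker and 1 neutrophil marker were higher without overlap. Of the stromal and endothelial markers 1 was higher and 2 lower without overlap, and 1 had an unadjusted p under 0.05 (limma). Over all features 11.1% were lower without overlap. Cd28 and Itgam stand in a marker list and in a list above, as do Itgax and Pecam1. The part of these cells in the differences of the 7 genes was not tested.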

How the data were processed

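RNA from 4 samples was labelled with Cy3 from 150 ng of total RNA and hybridised to 1-colour Agilent arrays, all on 1 slide, per the labels and file headers. The deposited intensity values come from Agilent Feature Extraction 10.7.1.1, per the submitters' processing notes and file headers, and are corrected for background within an array but not scaled between arrays. The authors also deposited a table of log2 values centred on each row's median. Its scaling is not given in the sources used here, and its column medians are 0.13, -0.032, -0.045 and 0.020 for Aff3+/- replicates 1 and 2 and Aff3-/- replicates 1 and 2.

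Here control spots (1377 of 44397) and outlier-flagged spots were left out. After log2 transformation of the processed signal, the 75th percentile of its array (1274 to 1351 intensity units) was subtracted. Probes entered if either genotype had both of its arrays well above background, giving 25132 of 39429 probes and 20646 features, each represented by its brightest probe. Per array 24947 to 25869 probes were above background, and 0 gene spots were saturated. The number of arrays, 2 per genotype, limits the precision. Symbols came from RefSeq (GRCm38.p6) by transcript accession for 26581 probes and by synonym for 6; 6857 tested features carry no symbol. Differences were estimated by limma 3.58.1 under R 4.3.3 (linear fit with empirical Bayes variances, 2 residual degrees of freedom per feature), two-sided, with Benjamini-Hochberg adjustment over all features. The fit was also run on simulated data with errors drawn independently for each array. Such data do not hold the shared deviation of same-numbered arrays described below. The smallest adjusted p over all features was 0.73, and 422 features (2.04%) had an unadjusted p under 0.05.

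The members, lists and tests were chosen with earlier results of these data known. The genes named are the 7 members; of each list of relatives the 3 of smallest p; the nearest profiles; and the first 3 markers of each cell type. A pair of listed genes is not reported here and was taken out of the lists and their counts. Cd27, Icos, Cd40lg, Itgal, Itgb2, Siglech, Ccr7, Zbtb46, Batf3, Itgam, Lck, Cd4 and Jchain were added after their values were seen. Alternatives covered background correction, scaling, the deposited values, the filter on dim probes, averaging a gene's probes, a variance trend, a replicate block and the omission of each array. A block for slide or scan could not be fitted, since 1 slide held all arrays. Normexp used the median signal, because the files hold no mean signal; that choice was made after seeing the data.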

Additional observations from a re-analysis of the deposited data

How the results depend on the processing

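No member, listed relative or other feature passed the adjusted threshold under any of the 12 alternatives. Icosl kept its direction in all 12, and Cd40, Cd83, Icam1 and Cd44 in the 11 that gave them a value. The other filters, the variance trend and the block returned the same differences, so they could not turn a sign. Nor could leaving out 1 array for Icosl, Cd40 and Cd44, whose genotypes did not overlap. Signs turned for Cd86 and Cd80 when an array was left out: the difference of Cd86 ranged from -0.018 to +0.31 and that of Cd80 from -0.11 to +0.016. With 1 array left out, the members' median ranged from +0.011 to +0.12, the members higher without overlap numbered 3 to 4 and those lower 1 to 2, while 45.5% to 73.1% of all features showed no overlap in either direction. The deposited log2 values hold 3 of the 11 probes (Icosl and Cd80); there the median was -0.20, 0 members were higher and 1 lower without overlap (18.3% of all features in either direction), and the median of all features was -0.073. The median of the listed relatives was -0.073 in those values, over 34 genes, against -0.0096 over 46. When a gene's probes were averaged, 2 members were lower without overlap, Cd80 joining Icosl; 19.9% of all features showed no overlap in either direction.

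Arrays with the same replicate number deviated together (r = 0.56 across 20632 features), but the labels do not say what the number marks. With the replicate block 0 features passed, and 1456 had an unadjusted p under 0.05 against 422 without it. Within both numbers the genotype difference had the same sign for 7 of 7 members and for 52.3% of all features. For Icosl, Cd40 and Cd44 the shared sign follows from their lack of overlap and adds nothing to it. For Cd80 the log2 difference within number 1 was only -0.0018, so its sign there carries little weight. The smallest adjusted p among the members under the block was 0.77 (limma), that of Icosl, at -0.35 ± 0.15 (SE).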
